A study of Sus scrofa with 4 samples.

Results

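The amino acid transporter families examined here were all genes whose symbol begins with SLC1A, SLC3A, SLC7A, SLC36A, SLC38A or SLC43A. This rule took 39 of the 21280 rows of each count matrix, namely 7 SLC1A, 2 SLC3A, 13 SLC7A, 4 SLC36A, 10 SLC38A and 3 SLC43A rows. One of them, SLC7A6OS, is a neighbour of a transporter gene and no transporter itself, and SLC7A6 and SLC38A1 are not analysed here. The data were single-cell RNA counts from pig (Sus scrofa) embryos and endometrium. Each tissue was taken at day 9 and at day 12 of pregnancy, which gave 4 groups of 1 library each. Embryo cells were freed with papain and dispase, and endometrial cells with collagenases and dispase, so a level set across the tissues also crosses 2 ways of preparing cells. The breed and the number of animals or embryos behind a library are not given in the sources used here.

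Amino acids cross cell membranes through carriers, and these families hold most of the carriers that serve ordinary cells. Several SLC7A members, the light chains that exchange large, cationic or acidic amino acids, reach the membrane only when bound to a heavy chain, SLC3A2 or SLC3A1. SLC1A members take up glutamate or small neutral amino acids, SLC38A members take up glutamine, alanine and similar neutral amino acids with sodium, SLC36A members carry small amino acids with protons, and SLC43A members let large neutral amino acids pass without exchange. Before implantation the pig conceptus is fed by uterine secretions, and arginine, leucine and glutamine in them are known to drive mTORC1 signalling in its outer layer.

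After filtering, 7000 and 6671 embryo cells (day 9 and day 12) and 7984 and 8962 endometrial cells remained, with medians of 11884 and 9297 UMIs (unique molecules) per cell in embryos and 2639 and 2233 in endometrium. Any pair of libraries shared 54 to 105 kept barcodes, at most 1.32% of a library's cells. Of all deposited barcodes of the day 12 embryo, 89.3% also occurred in the unfiltered day 9 embryo matrix. For each of the endometrial libraries this share was 99.9%. Pairs without the day 9 embryo matrix shared 1.17% to 1.33% of all deposited barcodes. The day 9 embryo matrix lists 657829 barcodes, and the share that a matrix of this size would hold by chance was not computed. Clusters were named from markers, so a class is called "-like". The hypoblast-like class, the inner layer that lines the yolk sac, held 5862 cells on day 9 and 2561 on day 12, and the trophectoderm-like class, the outer layer that meets the uterus, held 653 and 3249. The stromal-like class held 5069 and 5618 cells and the epithelial-like class 672 and 355. Of 18 trophectoderm markers, 13 stood at 20 CPM or more in the day 9 class and 16 in the day 12 class, and of 13 epithelial markers matched, 10 on both days. Of 18 hypoblast markers, 13 stood at 20 CPM or more in the day 9 class and 14 in the day 12 class (AFP was at 0 on day 9); of 15 stromal markers, all 15 did so on both days. Different clusters formed each class on the 2 days, and another 464, 546 and 403 cells of the day 9 embryo, day 12 embryo and day 12 endometrium stayed unnamed. The day 12 epiblast-like class held 100 cells, with 5 of 11 matched epiblast markers at 20 CPM or more. The day 12 mesoderm-like class held 215 cells, with 9 of 15 matched mesoderm markers at that level and TBXT and PRRX1 at 0. Trophectoderm markers summed to 49.9% and 99.9% of their trophectoderm-like level in these 2 classes, with medians over markers of 11.6% and 8.67%.

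Levels below are CPM, a gene's share of all the counts summed over a class on the usual scale of this unit, with 95% exact Poisson intervals. The counts are of molecules read near their 3′ end, so they need no scaling by gene length. With 1 library per group nothing could be tested, and the intervals cover counting error only, not the difference between animals. Across the 21 levels of classes with 50 cells or more, 25 members reached 20 CPM at least once, 11 of them highest in an embryo class and 14 in an endometrial one. More of these levels are endometrial than embryonic. The same split was not computed over all genes, so it is a description only. All 39 members together summed to 2014 CPM in day 9 and 2218 CPM in day 12 hypoblast-like cells. That was above the 541 and 787 CPM of trophectoderm-like cells, the 988 and 1508 CPM of stromal-like cells and the 254 and 240 CPM of B or plasma-like cells.

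**Figure D1:**
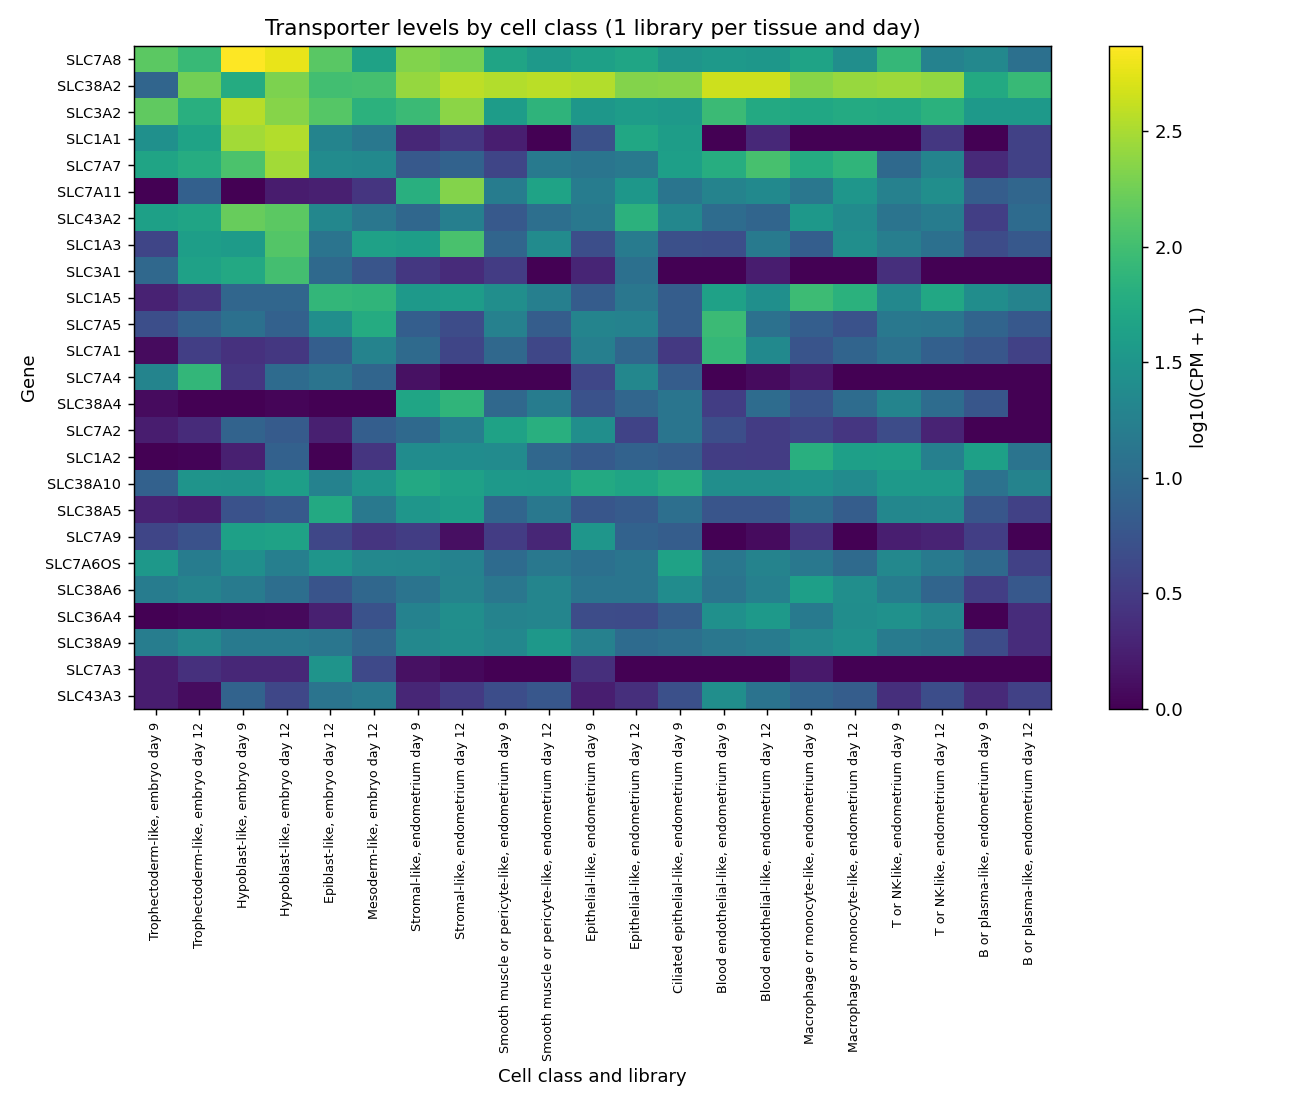
Levels of the 25 members at 20 CPM or more in at least 1 class (rows), in each class and library of 50 cells or more (columns), as colour on a log10(CPM + 1) scale. SLC7A8, SLC1A1 and SLC43A2 are brightest in the hypoblast-like columns, SLC7A11 in the stromal-like ones, and SLC38A2 is darkest in day 9 trophectoderm-like cells, at 7.66 CPM.

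The light chain SLC7A8 (ENSSSCG00000002032), an exchanger of large and small neutral amino acids, was the most abundant member. It stood at 741 CPM (734 to 747) in day 9 and 597 CPM (588 to 606) in day 12 hypoblast-like cells. Stromal-like cells followed with 211 and 187 CPM, and then trophectoderm-like cells with 140 and 85.4 CPM and day 12 epiblast-like cells with 134 CPM. In the 6 day 9 hypoblast-like clusters SLC7A8 ranged from 631 to 858 CPM, and in the 3 of day 12 from 444 to 616 CPM, so no trophectoderm-like or stromal-like cluster reached a hypoblast-like one. SLC7A7, the light chain that exports arginine and lysine in exchange for neutral amino acids, was also highest there, at 112 CPM (110 to 114) on day 9 and 293 CPM (287 to 300) on day 12. Blood endothelial-like cells held 59.8 and 106 CPM of SLC7A7 and macrophage or monocyte-like cells 57.8 and 75.2 CPM, whereas stromal-like cells held 5.26 and 7.04 CPM. In the Sscrofa11.1 assembly SLC7A8 and SLC7A7 lie near each other on chromosome 7, at 75854700 to 75921931 and 76195774 to 76235406 in the RefSeq table, 273843 bases apart.

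Their heavy chain SLC3A2, stood at 365 CPM (361 to 370) in day 9 and 224 CPM in day 12 hypoblast-like cells. Stromal-like cells held 89.0 CPM on day 9 and 232 CPM (224 to 241) on day 12. The day 12 stromal-like level was thus close to the day 12 hypoblast-like one, and the other endometrial classes lay between 31.8 and 88.9 CPM. The second heavy chain, SLC3A1, and its light chain SLC7A9 form the carrier for cystine and cationic amino acids that is known from kidney and gut. SLC3A1 stood at 52.5 and 101 CPM in hypoblast-like cells and SLC7A9 at 42.3 and 44.5 CPM. Outside the embryo SLC3A1 did not exceed 10.6 CPM, whereas SLC7A9 reached 31.3 CPM (130 counts) in day 9 epithelial-like cells, while SLC3A1 stood at 0.964 CPM in the same cells.

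SLC7A11, which imports cystine in exchange for glutamate, showed the opposite split between tissues. It stood at 63.1 CPM (59.2 to 67.3) in day 9 and 218 CPM (210 to 226) in day 12 stromal-like cells. In day 9 hypoblast-like cells 1 count was found among 74851706 UMIs, and in day 9 trophectoderm-like cells 0 counts, which allows up to 0.676 CPM. Its highest embryo level was 6.56 CPM (186 counts) in day 12 trophectoderm-like cells. SLC7A5, the main importer of leucine and other large neutral amino acids in dividing cells, stood at 3.83 to 10.4 CPM in trophectoderm-like and hypoblast-like cells of both days. It was higher in day 12 mesoderm-like cells, at 57.3 CPM (50.1 to 65.2), and in day 12 epiblast-like cells, at 25.5 CPM (17.5 to 35.8). Its highest level was 88.9 CPM (73.2 to 107) in day 9 blood endothelial-like cells.

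Of the glutamate carriers, SLC1A1 was highest in hypoblast. Hypoblast-like cells held 297 CPM (294 to 301) on day 9 and 342 CPM (336 to 349) on day 12, against 26.4 and 44.9 CPM in trophectoderm-like cells. Its highest endometrial levels were 50.7 CPM (72 counts) in day 12 epithelial-like and 38.3 CPM (19 counts) in day 9 ciliated epithelial-like cells, and all other endometrial levels but the 4.10 CPM of day 9 epithelial-like cells were under 3 CPM. SLC1A3 was shared by day 12 hypoblast-like cells (127 CPM, 123 to 131) and day 12 stromal-like cells (111 CPM, 105 to 116). SLC1A2 was higher in endometrium, at 62.9 and 40.4 CPM in macrophage or monocyte-like cells and at most 6.84 CPM in embryo classes. The neutral amino acid exchanger SLC1A5, the main glutamine importer of many dividing cells, stood at 91.0 CPM (77.4 to 106) in day 9 macrophage or monocyte-like cells. Day 12 epiblast-like cells held 78.0 CPM (63.5 to 94.7) and mesoderm-like cells 74.3 CPM (66.1 to 83.3), so these 3 levels were not set apart by their intervals. In trophectoderm-like cells of both days SLC1A5 was under 2 CPM. SLC1A4 and SLC1A6 did not exceed 12.6 CPM in any class.

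SLC38A2, the sodium-coupled carrier of small neutral amino acids that cells raise when amino acids are short, was the most abundant member in all endometrial classes of 50 cells or more, on both days. It was highest in blood endothelial-like cells, at 442 CPM (406 to 480) on day 9 and 444 CPM (425 to 465) on day 12, and lowest there in B or plasma-like cells, at 54.9 and 85.3 CPM. SLC38A4, which carries neutral and cationic amino acids, was highest in stromal-like cells, at 47.4 CPM (43.9 to 51.0) and 73.6 CPM (69.1 to 78.3), with at most 18.8 CPM in other endometrial classes. No embryo class of 50 cells or more exceeded 0.225 CPM of it. SLC38A5, a carrier of glutamine and serine, was highest in day 12 epiblast-like cells at 54.0 CPM (42.1 to 68.3, 70 counts), ahead of stromal-like cells with 31.3 and 39.0 CPM. SLC38A9, the lysosomal arginine sensor of mTORC1, ranged from 1.29 to 32.5 CPM, the highest in day 12 smooth muscle or pericyte-like cells. SLC38A10, of unsettled transport role, reached 60.4 CPM (30 counts) in day 9 ciliated epithelial-like cells and SLC38A6 40.6 CPM in day 9 macrophage or monocyte-like cells. SLC7A6OS reached 44.3 CPM (22 counts) in the ciliated epithelial-like cells. Among the proton-coupled carriers SLC36A4 was higher in endometrium, at up to 34.7 CPM (29.5 to 40.7) in day 12 blood endothelial-like cells and at most 4.27 CPM in the embryo. SLC36A1 peaked at 14.9 CPM in day 12 trophectoderm-like and in day 9 macrophage or monocyte-like cells alike.

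The cationic amino acid carriers SLC7A1, SLC7A2 and SLC7A3, which bring in arginine and lysine, each had another leading class. SLC7A1 led in day 9 blood endothelial-like cells at 81.0 CPM (66.1 to 98.3), and SLC7A2 in smooth muscle or pericyte-like cells at 43.9 and 64.0 CPM. SLC7A3 led in day 12 epiblast-like cells at 29.3 CPM (20.8 to 40.3), the only class where it passed 20 CPM. Their relative SLC7A4, whose transport role is not settled, led in day 12 trophectoderm-like cells at 77.5 CPM (74.3 to 80.8). In hypoblast-like cells of both days SLC7A1 was under 2 CPM and SLC7A2 between 5.68 and 7.27 CPM. SLC43A2, which lets branched-chain and aromatic amino acids leave cells, stood at 159 and 138 CPM in hypoblast-like cells. SLC43A3, known as a carrier of purine bases, reached 25.2 CPM (17.2 to 35.5) in day 9 blood endothelial-like cells. Of the 39 members, 7 were under 5 CPM in every class: SLC43A1, SLC7A10, SLC36A3, SLC7A13, SLC1A7, SLC38A8 and SLC7A14, the last with 0 counts in all kept cells.

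Markers of one embryo class were also counted in the other. In trophectoderm-like cells the hypoblast markers summed to 17.7% of their hypoblast-like level on day 9 (range over 13 markers 6.96% to 23.5%, with APOB, TTR, AFP and CUBN at 0). On day 12 the sum was 13.8% (range over 14 markers 3.498% to 28.1%). SLC1A1, SLC7A9 and SLC7A8 in trophectoderm-like cells stood at 8.86%, 6.93% and 18.9% of their hypoblast-like levels on day 9 and at 13.1%, 9.52% and 14.3% on day 12. These lay within the markers' ranges, except that SLC7A9 on day 9 was just below. SLC3A2 (40.2% and 28.5%) and SLC43A2 (26.4% and 33.7%) lay above them on both days. SLC7A7 lay above on day 9 (41.2%) and within on day 12 (20.2%). SLC38A2 (13.3% and 90.6%), SLC3A1 (15.9% and 43.0%) and SLC1A3 (7.97% and 30.9%) lay within on day 9 and above on day 12. In turn, trophectoderm markers in hypoblast-like cells summed to 4.96% of their trophectoderm-like level on day 9 and 47.2% on day 12, with medians over markers of 1.98% and 8.28%; their own level summed to 61417 CPM on day 9 and 12986 CPM on day 12. The part of RNA from the other class in these levels was not tested. SLC7A4 was higher in trophectoderm-like cells than in hypoblast-like cells, whose levels in clusters did not exceed 9.78 CPM.

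Between the days, a member was called when its level differed at least 2-fold after adding 1 CPM, with a mean of 10 CPM or more over both days. In trophectoderm-like cells 14 members passed that filter, and 5 of them were called higher on day 12, where 23.8% of all genes were. SLC38A2 went from 7.66 CPM (34 counts) to 181 CPM (5134 counts), a ratio of 23.6 (16.9 to 34.2). SLC1A3 went from 2.93 to 39.3 CPM, a ratio of 13.4 (7.80 to 25.2), and the heavy chain SLC3A1 from 8.34 to 43.4 CPM, a ratio of 5.21 (3.76 to 7.43). SLC7A4 went from 18.7 to 77.5 CPM and SLC38A10 from 6.76 to 29.3 CPM, ratios of 4.14 and 4.33. All of these but SLC7A4 passed the filter only through day 12, so the count of 5 is a description only. SLC3A2 was called lower, from 147 to 63.6 CPM, and so was SLC7A6OS, from 33.1 to 15.2 CPM; 11.6% of all genes were called lower.

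Several measures differed along with these levels. In both embryo classes the day also went with the counting software. Cell Ranger 4 made the unfiltered day 9 embryo matrix, in which cells were called here, and version 6.1.2 the day 12 one. Day and software cannot be told apart. Of the genes that cell dissociation is known to induce, 9 of 11 were called higher in trophectoderm-like cells, with a median log2 difference of 3.36 against 0.09 over all genes, and EGR1 went from 7.66 to 412 CPM. The median mitochondrial share was 0.547% in the day 9 class and 3.63% in the day 12 class. In barcodes of 1 to 100 UMIs of the day 9 embryo, SLC38A2 stood at 135 CPM (116 to 156), above the 7.66 CPM of the day 9 trophectoderm-like cells. Whether such barcodes hold counts from the other libraries was not tested. The part of these measures in the transporter levels was not tested. Over all kept cells of the day 9 and day 12 embryo the log2 difference of SLC38A2 was 1.73, against 4.39 in the class, and that of SLC1A3 1.18, against 3.36. SLC3A1 (0.44, against 2.25), SLC38A10 (0.27, against 1.97) and SLC7A6OS (-0.65, against -1.08) were then not called. Scaling by the median of ratios moved the log2 differences of this class up, by 0.29 at the median of the genes it rested on. With cells of the day 9 embryo called from 1000 UMIs, which put 1132 cells in the day 9 class, the log2 difference was 3.34 for SLC38A2, 2.11 for SLC1A3 and 1.38 for both SLC3A1 and SLC38A10. Under the median scaling SLC3A2 differed by -0.91 and SLC7A6OS by -0.81, and neither was called lower.

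In hypoblast-like cells 14 members passed the filter and 3 were called higher on day 12, where 9.42% of all genes were. SLC38A2 went from 57.6 CPM (4308 counts) to 200 CPM (5842 counts), a ratio of 3.47 (3.34 to 3.61), SLC1A3 from 36.8 to 127 CPM, a ratio of 3.45 (3.29 to 3.63), and SLC7A7 from 112 to 293 CPM, a ratio of 2.62 (2.54 to 2.70). None was called lower, where 8.17% of all genes were, although SLC38A7 went from 15.7 to 7.39 CPM, at the edge of the call with a ratio of 0.470 (0.405 to 0.544). The abundant members differed less: SLC7A8 by -0.31, SLC1A1 by 0.20, SLC43A2 by -0.20 and SLC3A2 by -0.71 on the log2 scale, and SLC3A1 by 0.93, just inside the fold of 2. Scaling by the median of ratios moved this class up by 0.16 at the median. Over all kept cells of the embryo SLC7A7 differed by 0.62 and was not called. SLC38A2 was higher in every day 12 hypoblast-like cluster (123 to 220 CPM) than in any day 9 one (48.5 to 62.7 CPM), and SLC7A7 likewise (259 to 296 against 87.9 to 183 CPM). SLC1A3 did not separate the days by cluster, since day 12 cluster 6, led by TTR and FGB, held 12.7 CPM. Of the dissociation-induced genes, 8 of 12 were called higher here, with a median log2 difference of 1.42 against -0.18 over all genes, and their part in the transporter levels was not tested.

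**Figure D2:**
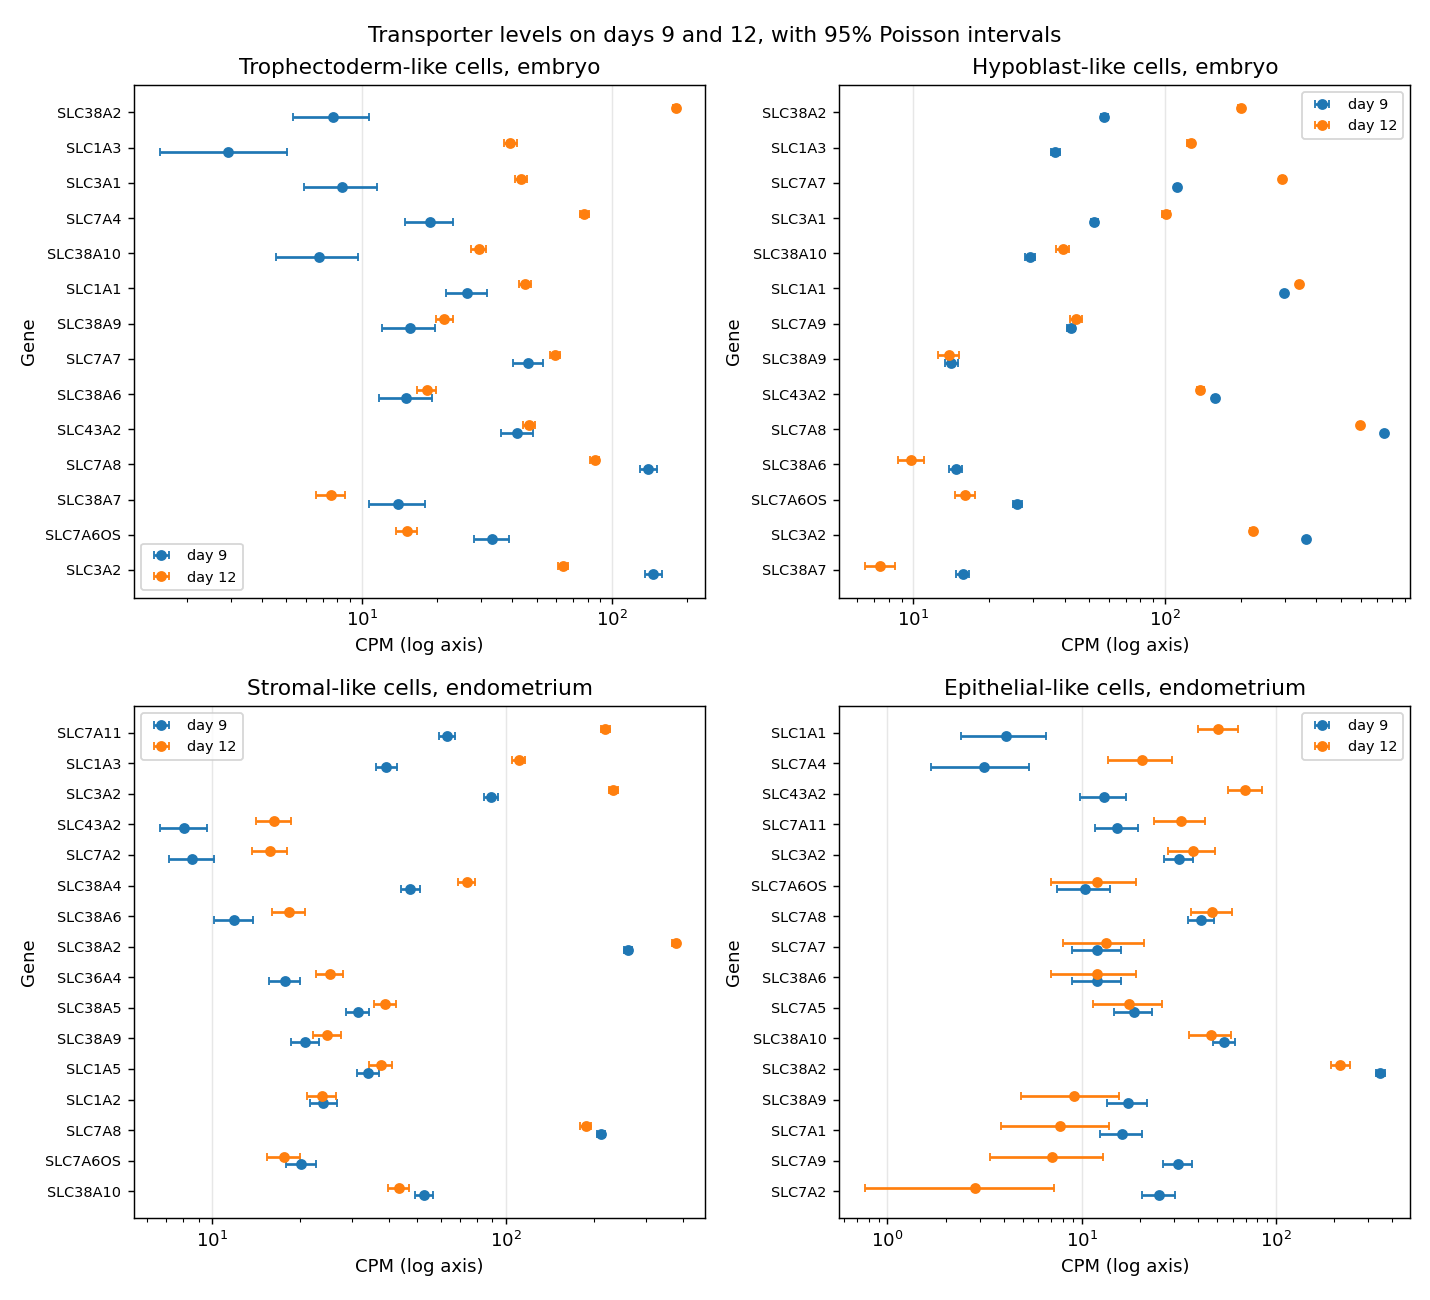
Levels of the members that passed the filter in 4 classes on day 9 (blue) and day 12 (orange), in CPM on a log axis, with 95% Poisson intervals for counting error. Rows are sorted by the log2 difference; SLC38A2 heads both embryo panels and SLC7A11 the stromal-like one.

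In stromal-like cells 16 members passed the filter and 3 were called higher on day 12, where 5.55% of all genes were; none was called lower, where 5.89% were. SLC7A11 went from 63.1 CPM (936 counts) to 218 CPM (2911 counts), a ratio of 3.46 (3.21 to 3.72). Its heavy chain SLC3A2 went from 89.0 to 232 CPM, a ratio of 2.61 (2.45 to 2.79), and SLC1A3 from 39.2 to 111 CPM, a ratio of 2.82 (2.56 to 3.11). Both subunits of the cystine and glutamate exchanger, and a carrier that takes glutamate up, were higher on day 12. SLC43A2 went from 8.03 to 16.3 CPM, just under the call with a log2 difference of 0.94, and SLC38A2 from 261 to 379 CPM, a log2 difference of 0.54. SLC7A8, SLC1A2 and SLC1A5 differed by -0.17, -0.02 and 0.14 on the log2 scale.

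These stromal-like differences were uneven among clusters. SLC7A11 was 52.3 to 73.3 CPM in the 3 day 9 clusters and 52.3 to 273 CPM in the 5 day 12 clusters. Day 12 clusters 1 (177 cells) and 3 (830 cells) held 52.3 and 87.2 CPM, and the other 3 held 230 to 273 CPM. SLC1A3 split the same clusters, with 40.2 and 26.9 CPM in clusters 1 and 3 and 85.6 to 178 CPM in the other 3. It is among the 10 leading genes of cluster 2, so its level there is part of what defined that cluster. SLC3A2 was at 111 CPM in cluster 1 and 203 to 296 CPM in the other 4, all above the 75.5 to 95.9 CPM of day 9. Dissociation-induced genes differed by a median log2 of 0.32 in this class, with 2 of 13 called higher.

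**Figure D3:**
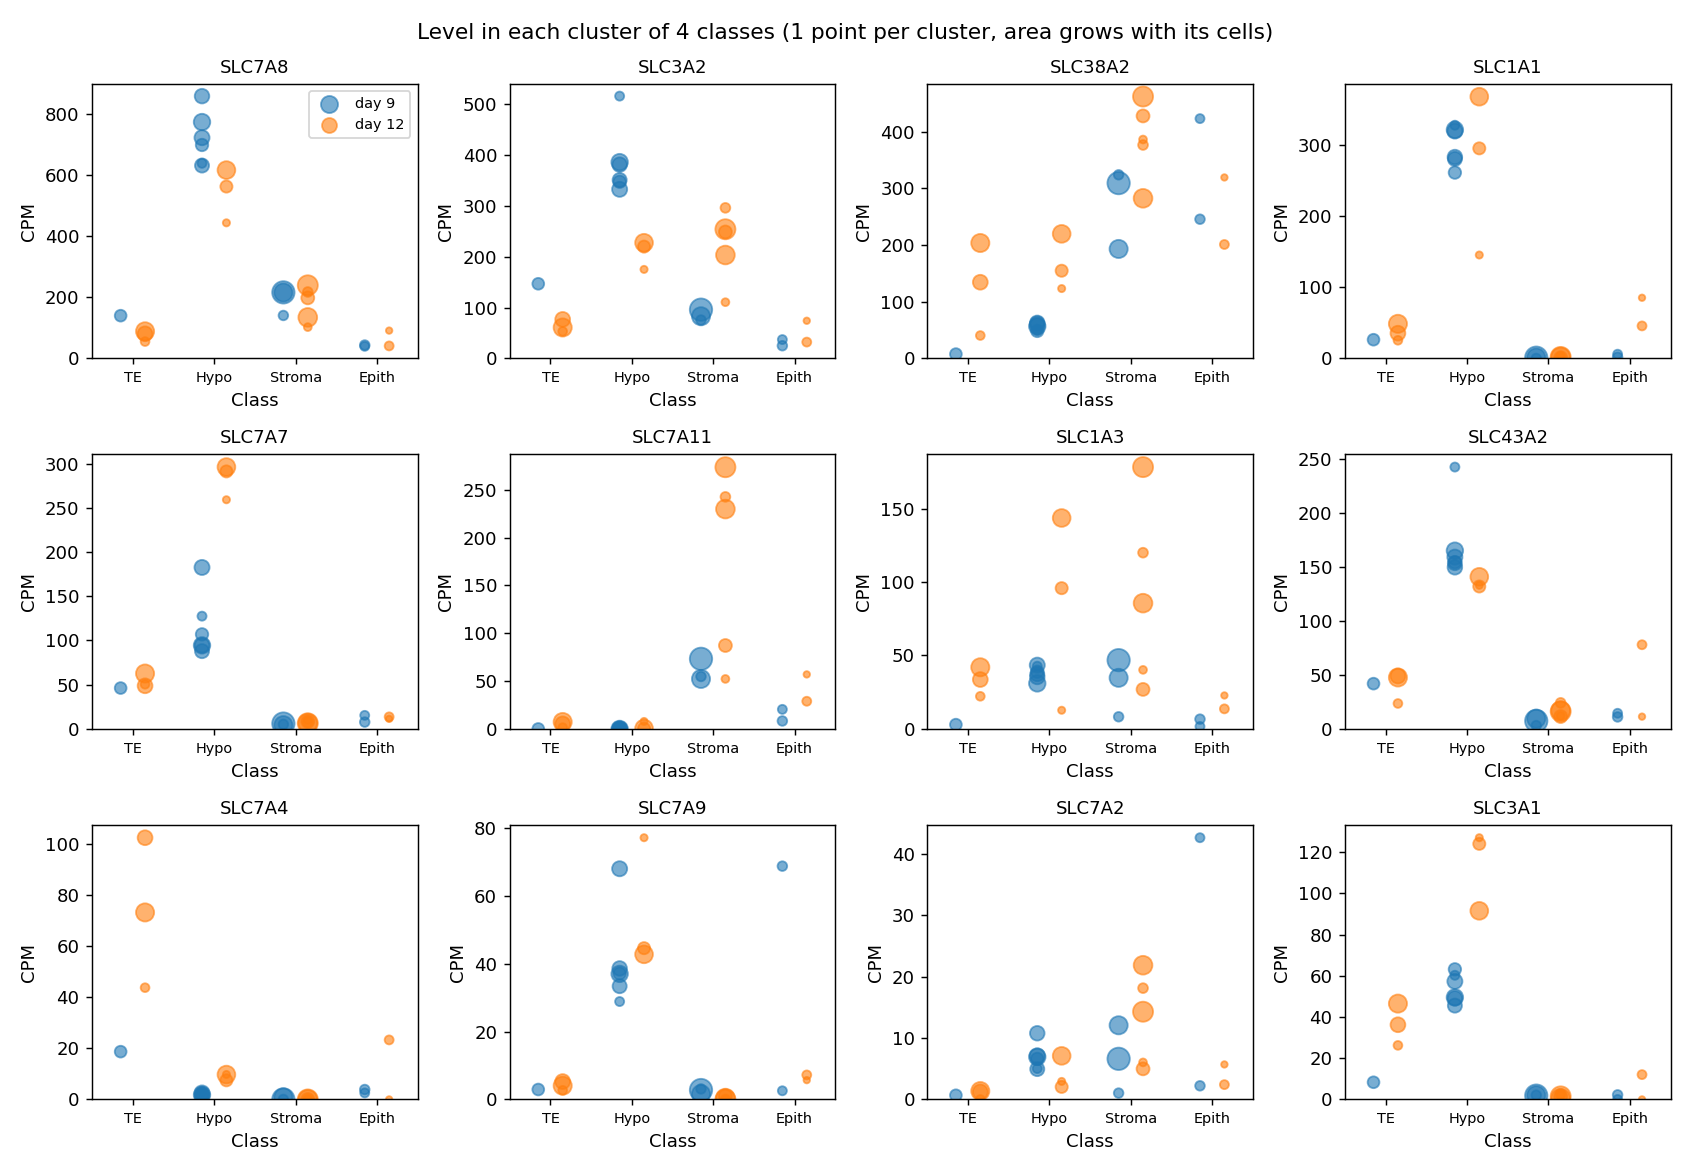
Level in CPM (linear axes from 0) of 12 members in each cluster of the trophectoderm-like (TE), hypoblast-like (Hypo), stromal-like (Stroma) and epithelial-like (Epith) classes, day 9 in blue and day 12 in orange, with point area growing with the number of cells. SLC7A11 and SLC1A3 spread widely over the day 12 stromal-like clusters, and SLC7A9 and SLC7A2 each stand out in a single day 9 epithelial-like cluster.

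In epithelial-like cells 16 members passed the filter; 4 were called higher on day 12, where 10.5% of all genes were, and 2 lower, where 11.6% were. SLC1A1 went from 4.10 CPM (17 counts) to 50.7 CPM (72 counts), a ratio of 12.4 (7.22 to 22.4). SLC7A4 went from 3.13 to 20.4 CPM, SLC43A2 from 13.02 to 69.7 CPM and SLC7A11 from 15.2 to 32.4 CPM. SLC7A2 went from 25.1 CPM (104 counts) to 2.82 CPM (4 counts), and SLC7A9 from 31.3 CPM to 7.04 CPM (10 counts). SLC1A1, SLC7A4, SLC7A2 and SLC7A9 each passed the filter through 1 day only.

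The day 9 epithelial-like class was made of 2 clusters that carried different members. Cluster 11 (371 cells, led by DEFB1) held 68.8 CPM of SLC7A9 and 2.22 CPM of SLC7A2, and cluster 5 (301 cells, with AQP3 and SPDEF) held 2.56 CPM of SLC7A9 and 42.6 CPM of SLC7A2. On day 12 cluster 10 (296 cells, led by genes such as FXYD3 and S100A12) held 77.9 CPM of SLC43A2 and 23.3 CPM of SLC7A4, whereas cluster 9 (59 cells) held 11.4 and 0 CPM. SLC1A1 was counted in both day 12 clusters, at 45.8 and 85.4 CPM, against 1.67 and 5.97 CPM in those of day 9. The epithelial-like class on day 12 also summed to 1821 CPM of the neutrophil list, with counts in 5 of 6 matched markers and MMP9 at 0, against 6.51 CPM on day 9. With 2000 UMIs per cell, a mitochondrial limit of 10% or joint clustering, the cells of cluster 10 went unnamed because neutrophil markers were too prominent, leaving 25, 58 and 57 day 12 cells, and the directions of SLC43A2 and SLC7A4 turned. The day 9 class then held 296, 528 and 645 cells, and with 2000 UMIs per cell SLC7A9 differed by -6.12 on the log2 scale, against -2.01. SLC7A2 lost its difference when the transporter genes were left out of clustering, since the cells of day 9 cluster 5 then fell among ciliated epithelial-like cells, and the log2 difference was 0.25. SLC1A1, SLC7A9 and SLC7A11 kept their directions in all alternatives run.

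**Figure D4:**
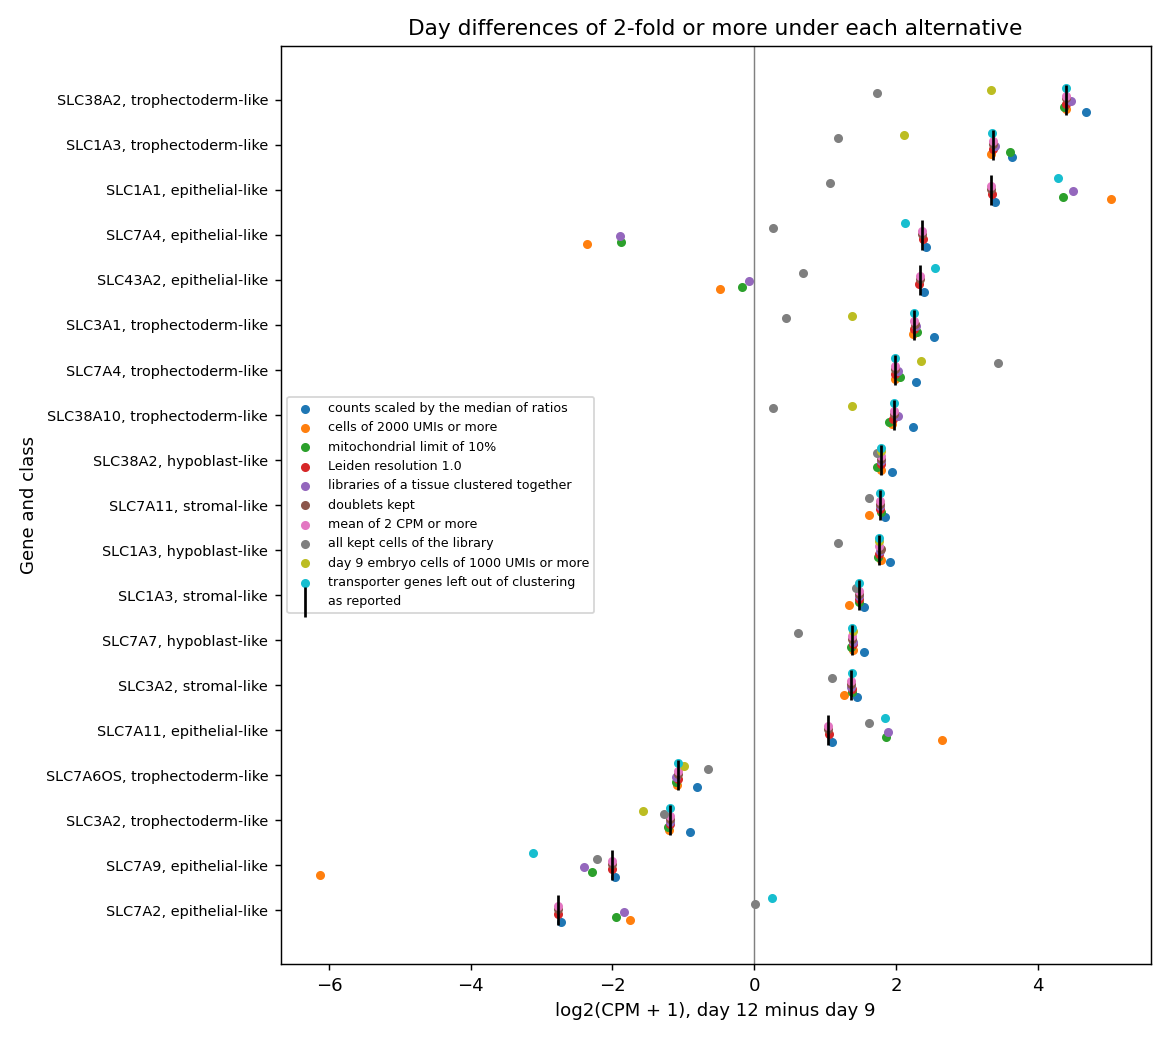
Log2(CPM + 1) difference, day 12 minus day 9, of each called member in the 4 classes as reported (black bars) and under the alternatives (coloured points), 10 for embryo classes and 9 for endometrial ones, where the calling of day 9 embryo cells does not apply. The stromal-like and hypoblast-like values lie to the right of 0 throughout; the points that cross 0 are SLC43A2, SLC7A4 and SLC7A2 in epithelial-like cells.

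In blood endothelial-like cells the leucine importer SLC7A5 and the arginine importer SLC7A1 were lower on day 12. Of 14 members that passed the filter, 3 were called lower, where 5.04% of all genes were, and none higher, where 3.03% were. SLC7A5 went from 88.9 CPM (113 counts) to 10.8 CPM (48 counts), a ratio of 0.122 (0.0851 to 0.172), and SLC7A1 from 81.0 CPM (103 counts) to 21.9 CPM (97 counts), a ratio of 0.270 (0.203 to 0.360). SLC43A3 went from 25.2 to 11.3 CPM. SLC7A7, which moves arginine outward, was also counted more often on day 12, with 59.8 and 106 CPM and a ratio of 1.78 (1.39 to 2.30), and SLC38A2 stood at 442 and 444 CPM. All 14 blood endothelial markers stood at 20 CPM or more on both days, and stromal markers summed to 11.5% and 9.57% of their stromal-like level. The class was a single cluster on each day, of 176 and 820 cells. Its cells had a median of 5983.5 UMIs on day 9 and 3111.5 on day 12. Their median mitochondrial share was 1.46% and 2.58%. The part of these measures in the transporter differences was not tested.

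In macrophage or monocyte-like cells 2 of 15 members were called higher (5.03% of all genes), SLC7A11 from 12.6 to 31.5 CPM and SLC1A3 from 6.29 to 25.4 CPM, and none lower (6.42%). In smooth muscle or pericyte-like cells 16 members passed, the same pair was called higher (5.33% of all genes), SLC7A11 from 15.1 to 44.7 CPM and SLC1A3 from 7.57 to 23.4 CPM, and SLC1A2 and SLC7A5 were called lower (4.69%). SLC1A3 in both classes, and SLC1A2 and SLC7A5 in the second, passed the filter only through the day they were higher, so these counts are descriptions only. SLC7A11 was higher on day 12 in all 6 endometrial classes where it passed the filter, 4 of them by a call. How often genes at large were higher in as many classes was not computed. Stromal markers were also counted in the macrophage or monocyte-like and smooth muscle or pericyte-like cells. Whether these counts came from stromal cells was not tested. SLC7A11 in macrophage or monocyte-like cells was 19.9% and 14.4% of its stromal-like level on day 9 and day 12, where stromal markers summed to 15.3% and 12.4%. In smooth muscle or pericyte-like cells SLC7A11 was 24.0% and 20.5%, and the markers 38.4% and 29.4%. SLC1A3 was 16.1% and 22.9% of its stromal-like level in macrophage or monocyte-like cells and 19.3% and 21.1% in smooth muscle or pericyte-like cells. SLC7A11 was 24.1% and 14.8% of its stromal-like level in epithelial-like cells and 28.7% and 10.1% in blood endothelial-like cells. In T or NK-like cells it was 27.5% and 11.7%. The part of stromal RNA in these differences was not tested.

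In T or NK-like cells 17 members passed. SLC1A5 (21.0 to 52.0 CPM) and SLC7A7 (8.67 to 18.9 CPM, passing only through day 12) were called higher, where 5.65% of all genes were. SLC7A8 (80.2 to 18.0 CPM) and SLC1A2 (41.9 to 17.0 CPM) were called lower, where 16.1% were. Stromal markers in this class summed to 39.1% of their stromal-like level on day 9 and 7.93% on day 12, all 15 with counts, and SLC7A8 stood at 38.0% and 9.61% of its own stromal-like level. The part of stromal RNA in the SLC7A8 difference was not tested. In B or plasma-like cells 6 members passed; SLC1A2 was called lower, from 41.5 CPM (34 counts) to 11.6 CPM (9 counts), where 9.62% of all genes were, and none was called higher, where 6.59% were.

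Other genes of amino acid handling were described with lists beside the families. A gene of a list that passed the filter through 1 day only had to differ, though not always by the fold of a call. The counts are therefore descriptions, given with how many passed that way where any did. The stress and synthesis list held genes of the integrated stress response and of amino acid synthesis, and was not specific to amino acid shortage. In hypoblast-like cells 7 of its 16 genes that passed were called higher and 1 lower, where 9.42% and 8.17% of all genes were. Of these 16, 4 passed through 1 day only. The median log2 difference of the 16 was 0.68 against -0.18 over all genes. ATF3, an early stress factor, went from 114 to 419 CPM and ASNS, asparagine synthetase, from 14.7 to 35.4 CPM, while MTHFD2 of the folate cycle went from 156 to 72.4 CPM. Of 19 enzymes that load tRNAs, none was called higher and 3 lower, AARS1 among them from 119 to 52.5 CPM, with a median of -0.74. Of 13 glutamine and glutathione genes 3 were called higher and 1 lower (1 through 1 day only), with a median of 0.39. GOT2 and GPT2, aminotransferases that work on glutamate, went from 217 to 953 and from 51.6 to 216 CPM, and GLUD1, glutamate dehydrogenase, from 796 to 350 CPM. Of 14 arginine and polyamine genes 3 were called higher and 2 lower (2 through 1 day only). SAT1, which acetylates polyamines, went from 111 to 317 CPM and ASS1 of arginine synthesis from 7.68 to 35.4 CPM, while the arginine-degrading ARG2 went from 147 to 56.3 CPM and SRM, spermidine synthase, from 228 to 106 CPM. For mTORC1 and its sensors 2 of 21 were called higher and none lower (3 through 1 day only), close to the share of all genes called higher. Of 6 other amino acid and peptide carriers, 2 were called higher and 1 lower (1 through 1 day only). Of 5 tryptophan and branched-chain genes, none was called either way.

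In trophectoderm-like cells, where 23.8% of all genes were called higher and 11.6% lower, 8 of 13 genes of glutamine and glutathione metabolism were called higher and 1 lower, and 3 passed through 1 day only. Their median log2 difference was 1.34 against 0.09 over all genes. GLUL, glutamine synthetase, went from 90.2 to 644 CPM and GSR, which reduces glutathione, from 7.44 to 46.7 CPM, passing only through day 12, while GLUD1 went from 515 to 38.4 CPM. Of arginine and polyamine genes 7 of 13 were called higher and 2 lower, 3 of the 13 passing through 1 day only. SAT1 stood at 65.1 and 296 CPM, ASS1 at 111 and 51.0 CPM and ARG2 at 49.1 and 7.09 CPM on the 2 days. Of 6 tryptophan and branched-chain genes 1 was called higher and 1 lower, the latter BCAT2, which starts the breakdown of branched-chain amino acids, from 554 to 56.9 CPM. Of these 6, 2 passed through 1 day only. Of 6 other amino acid and peptide carriers 2 were called higher and 1 lower, and 2 passed through 1 day only. The peptide carrier SLC15A2 went from 8.56 to 191 CPM, a ratio of 22.3 (16.2 to 31.5), passing only through day 12, and the mitochondrial glutamate carrier SLC25A22 from 29.98 to 13.2 CPM. SLC15A2 is among the 10 leading genes of day 12 cluster 4. Of 16 stress and synthesis genes 6 were called higher and 1 lower, and 4 passed through 1 day only. PSAT1 stood at 0.225 and 51.0 CPM and ALDH1L2 at 218 and 9.66 CPM on the 2 days. Of 19 enzymes that load tRNAs none was called higher and 2 lower. For mTORC1 and its sensors 1 of 14 was called higher and 1 lower, and 1 passed through 1 day only.

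In stromal-like cells 5.55% of all genes were called higher and 5.89% lower. The stress and synthesis list had 1 of 19 genes called higher and 3 lower there, and 1 passed through 1 day only. NUPR1, a stress-induced chromatin factor, went from 606 to 3384 CPM, while PSAT1 and PSPH of serine synthesis went from 68.1 to 15.2 and from 48.6 to 16.04 CPM. Of 18 enzymes that load tRNAs 1 was called higher, WARS1 for tryptophan from 26.0 to 195 CPM, and 2 lower, VARS1 among them from 30.9 to 11.4 CPM, with a median of -0.36. Of these 18, 1 passed through 1 day only. Of 5 tryptophan and branched-chain genes 1 was called higher and none lower, with a median of -0.37: IDO1, which degrades tryptophan, stood at 0.540 and 115 CPM and passed only through day 12. Of 12 glutamine and glutathione genes 2 were called higher and none lower (1 through 1 day only), with a median of -0.05. NFE2L2, a regulator of glutathione genes, went from 76.0 to 175 CPM and GLUL from 205 to 437 CPM, while GOT2 stood at 51.5 and 27.9 CPM and GPT at 60.8 and 35.1 CPM. For mTORC1 and its sensors 1 of 26 was called higher and 1 lower (1 through 1 day only). Of 15 arginine and polyamine genes 1 was called higher and 2 lower. Of 8 other amino acid and peptide carriers none was called either way (3 through 1 day only).

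In epithelial-like cells, where 10.5% of all genes were called higher and 11.6% lower, 5 of 13 glutamine and glutathione genes were called higher and 2 lower, with a median of 0.55 against -0.13 over all genes. Of these 13, 1 passed through 1 day only. GCLC, the first enzyme of glutathione synthesis, went from 20.5 to 136 CPM and NFE2L2 from 103 to 415 CPM, while GPT2 went from 70.4 to 16.2 CPM and GOT1 from 101 to 35.9 CPM. Of 16 arginine and polyamine genes 2 were called higher and 2 lower (2 through 1 day only), with a median of -0.33. GATM, which starts creatine synthesis from arginine, stood at 5.30 and 149 CPM and passed only through day 12, while SAT1 went from 7927 to 3329 CPM and SMS, spermine synthase, from 202 to 61.96 CPM. Of 19 stress and synthesis genes 6 were called higher and none lower (1 through 1 day only), with a median of 0.59. Of 18 tRNA-loading enzymes none was higher and 1 lower. For mTORC1 1 of 27 was higher and 1 lower (5 through 1 day only). Of 7 tryptophan and branched-chain genes 1 was higher and 2 lower (1 through 1 day only), and of 11 other carriers 2 and 3 (4 through 1 day only).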

How the data were processed

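Deposited values are whole-number UMI counts per gene and barcode in 4 libraries. The submitters' processing notes name Cell Ranger 6.1.2 and the assembly Sscrofa11.1 for the authors' counting. Per the file headers, version 4 made the day 9 embryo matrix and 6.1.2 the remaining 3. The day 9 embryo matrix is unfiltered (657829 barcodes); barcodes with 2759 UMIs or more, which is 0.1 of the total at percentile 99 among its 3000 largest barcodes, were taken as cells. In all libraries a cell had to have 1000 UMIs, 500 genes and no more than 20% of UMIs from mitochondrial genes. Scrublet's method in scanpy 1.11.5 marked 93 doublets in the day 12 embryo, which were removed. It marked 1, 0 and 0 in the others, under 0.5%, so it did not work in those 3. Kept cells held 82526421 and 64299480 UMIs in embryos (day 9, day 12) and 26070993 and 25457541 in endometrium. Clustering ran per library on 2000 variable genes, with 30 components, 15 neighbours and a Leiden resolution of 0.6. Clusters were named from 198 matched markers of 223 listed. A name needed 3 markers at 0.5 or more of their highest cluster level, no unrelated class with markers as prominent, and none with more markers among the 10 leading genes. Embryo clusters were named from trophectoderm, hypoblast, epiblast and mesoderm markers only, a limit set after the clusters were seen.

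Counts were summed per class and library and scaled to CPM here. The day comparison took classes with at least 50 cells at each day, on the log2(CPM + 1) scale; ratios in the text are without the added 1 CPM and have exact binomial intervals at 95%. A count of 0 allows up to 3 counts. No test was run, since each group is 1 library. The ratio step was first run on simulated Poisson counts with known folds, the model on which the intervals rest. That run cannot speak to the spread between clusters or animals. All members at 20 CPM or more in a class are named with their highest class, those called between days in the 4 main classes are named there, and in other classes and lists up to 3 each way and up to 4 genes. SLC1A3, SLC1A2, SLC7A5, SLC7A7 and SLC43A3 in the other classes include values under that rule's mean of 20 CPM, and were named after their values were seen. The members, markers and lists were chosen with earlier results of these data known. Positions are those of the RefSeq table of Sscrofa11.1, matched by symbol. Overlaps with other genes there include SLC3A1 with PREPL, SLC7A7 with OXA1L, SLC7A6OS with SLC7A6 and PRMT7, and SLC36A2 with SLC36A3. They also include SLC7A4 with P2RX6, SLC7A9 with TDRD12, SLC38A9 with PLPP1 and SLC36A4 with DEUP1. Reads of such pairs may not be told apart. The entry of SLC7A5 there is typed as a long noncoding RNA. Alternatives were another scaling, 2000 UMIs, 10% mitochondrial UMIs, resolution 1.0, joint clustering, doublets kept, a mean of 2 CPM, all kept cells and 1000 UMIs for calling day 9 embryo cells. One more, clustering without the transporter genes, was chosen after seeing the data.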

Additional observations from a re-analysis of the deposited data

Results flagged for a closer look

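SLC3A2, the heavy chain, differed in opposite directions between classes: the log2 difference from day 9 to day 12 was 1.37 in stromal-like cells and -1.19 in trophectoderm-like cells, 2.57 apart, and this difference was not tested. Barcodes of 1 to 100 UMIs in the day 9 embryo, 1347756 UMIs in all, held 5 of the 39 members above their level in kept cells of that library. SLC38A2 stood at 135 CPM there against 53.7 CPM in kept cells, and SLC7A6OS at 37.8 against 26.1 CPM. The other 3 were rarer, SLC38A4 at 3.71 CPM (5 counts), SLC7A10 at 2.23 CPM (3 counts) and SLC7A11 at 6.68 CPM (9 counts), against 3, 0 and 1 counts in all kept cells. Whether these barcodes hold counts from the other libraries was not tested. How many of all genes stood higher in them was not computed, so the 5 of 39 are a description only.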

How the results depend on the processing

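No paired analysis was possible because each group holds 1 library. Over the 19 called differences of single members in the 4 main classes, 181 values were recomputed under 10 alternatives: 137 stayed close, 36 moved and 8 turned direction. Those that turned were all in epithelial-like cells: SLC43A2 at -0.49, -0.17 and -0.08 and SLC7A4 at -2.36, -1.88 and -1.89 with 2000 UMIs, 10% mitochondrial UMIs and joint clustering, and SLC7A2 at 0.01 over all kept cells and 0.25 with transporters left out of clustering. Of 76 counts of called members, 60 stayed within 1.5 times and 16 moved. Scaling by the median of ratios left 0 of 15 called lower in trophectoderm-like cells. In hypoblast-like cells 1 of 14 was called lower with 10% mitochondrial UMIs, resolution 1.0 or day 9 cells from 1000 UMIs. There, 1 of 23 was lower with a mean of 2 CPM and 3 of 16 over all kept cells. In epithelial-like cells 7 of 18 were higher and 4 lower with 10% mitochondrial UMIs. Joint clustering gave 4 of 17 lower there, all kept cells 0 of 18 and transporters left out 1 of 14. A mean of 2 CPM gave 8 of 19 higher in trophectoderm-like, 6 of 23 in hypoblast-like and 7 of 25 in epithelial-like cells. It gave 2 of 24 lower in stromal-like cells. All kept cells gave 3 of 16 higher for trophectoderm-like. The share of all genes called is given for the main setting only, so these counts are descriptions only. Beyond fewer or more genes passing a filter and the cells named above, the cause was not tested. Epithelial-like day 12 sums hold 1420182 UMIs, so levels under 2.11 CPM there rest on 3 counts or fewer.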
